A study of Mus musculus with 22 samples.

Results

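The 9 genes described here encode the neuronal nicotinic acetylcholine receptor subunits alpha2 to alpha7 (Chrna2, Chrna3, Chrna4, Chrna5, Chrna6 and Chrna7) and beta2 to beta4 (Chrnb2, Chrnb3 and Chrnb4). They were chosen by name, and every row of the array table whose annotated symbol was one of them alone was taken. This gave 94 probesets of 1201338 in the table, and 9 genes of the 16016 that were tested. Whole-brain RNA of naive adult males was compared between the inbred strains C57BL/6J (B6, 10 mice) and DBA/2J (D2, 12 mice), with 1 mouse per Affymetrix Mouse Exon 1.0 ST array. This array measures each gene with several probesets, short groups of probes placed along its exons. The mice carried no transgene or treatment according to the labels, an exact age was not given, and 2 B6 arrays read on another scanner were left out by the authors. Every difference below is D2 minus B6 on the log2 scale, where a value of 1 is a doubling of signal.

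Neuronal nicotinic receptors are cation channels built of several subunits around a pore, which open when acetylcholine or nicotine binds. Receptors of alpha4 with beta2 are the most widespread form in brain and bind nicotine with high affinity, alpha7 forms channels by itself, and alpha3 with beta4 is the form of autonomic ganglia and of the medial habenula. Alpha6 and beta3 are found mainly in midbrain dopamine neurons and visual pathways, alpha5 is an accessory subunit, and alpha2 is restricted to few neurons such as those of the interpeduncular nucleus. In whole brain, fewer cells of a type and less RNA per cell cannot be told apart.

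Between arrays of the same strain, the correlation across kept probesets ranged from 0.914 to 0.960 (median 0.945), and between strains its median was 0.935; probesets are not independent replicates. The median of all probesets averaged 1.44 on the 10 B6 arrays (SD 0.018) and 1.48 on the 12 D2 arrays (SD 0.018), which differed by a two-sided permutation test (p = 9e-05). Among all genes, 10.8% were called (limma, adjusted p under 0.05), 2.57% higher and 8.26% lower in D2. This split depended on scaling: 412 genes were called higher and 1323 lower on the deposited scale, against 1023 higher and 756 lower after each array was centred on the median of its gene values, which moved the median gene difference from -0.053 to 0.046. The array file names carried a letter, A on 18 arrays (8 B6, 10 D2) and B on 4 arrays (2 B6, 2 D2). The labels do not say what the letter stands for.

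Of the 9 subunit genes, Chrnb4 was higher in D2, Chrna3 was lower, and the other 7 were not called. This is 1 higher and 1 lower of 9, beside 2.57% and 8.26% of all genes. The median difference over the 9 genes was -0.065, beside -0.053 over all genes tested. B6 and D2 values overlapped in each of the 9 genes, whereas 1.18% of all genes did not overlap. An unadjusted p under 0.05 was reached by 4 of the 9, namely Chrna2, Chrna3, Chrna6 and Chrnb4. Such a p was common among all genes: Chrna2 (limma p = 0.0456) ranked only 3895 by p among the 16016 tested. A gene's value here is the median of its kept probesets on each array, where a probeset was kept if its mean over the 22 arrays reached 1.44, the median of all probeset means. Levels of different genes are not set against each other, since probes differ in how strongly they bind.

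**Figure D1:**
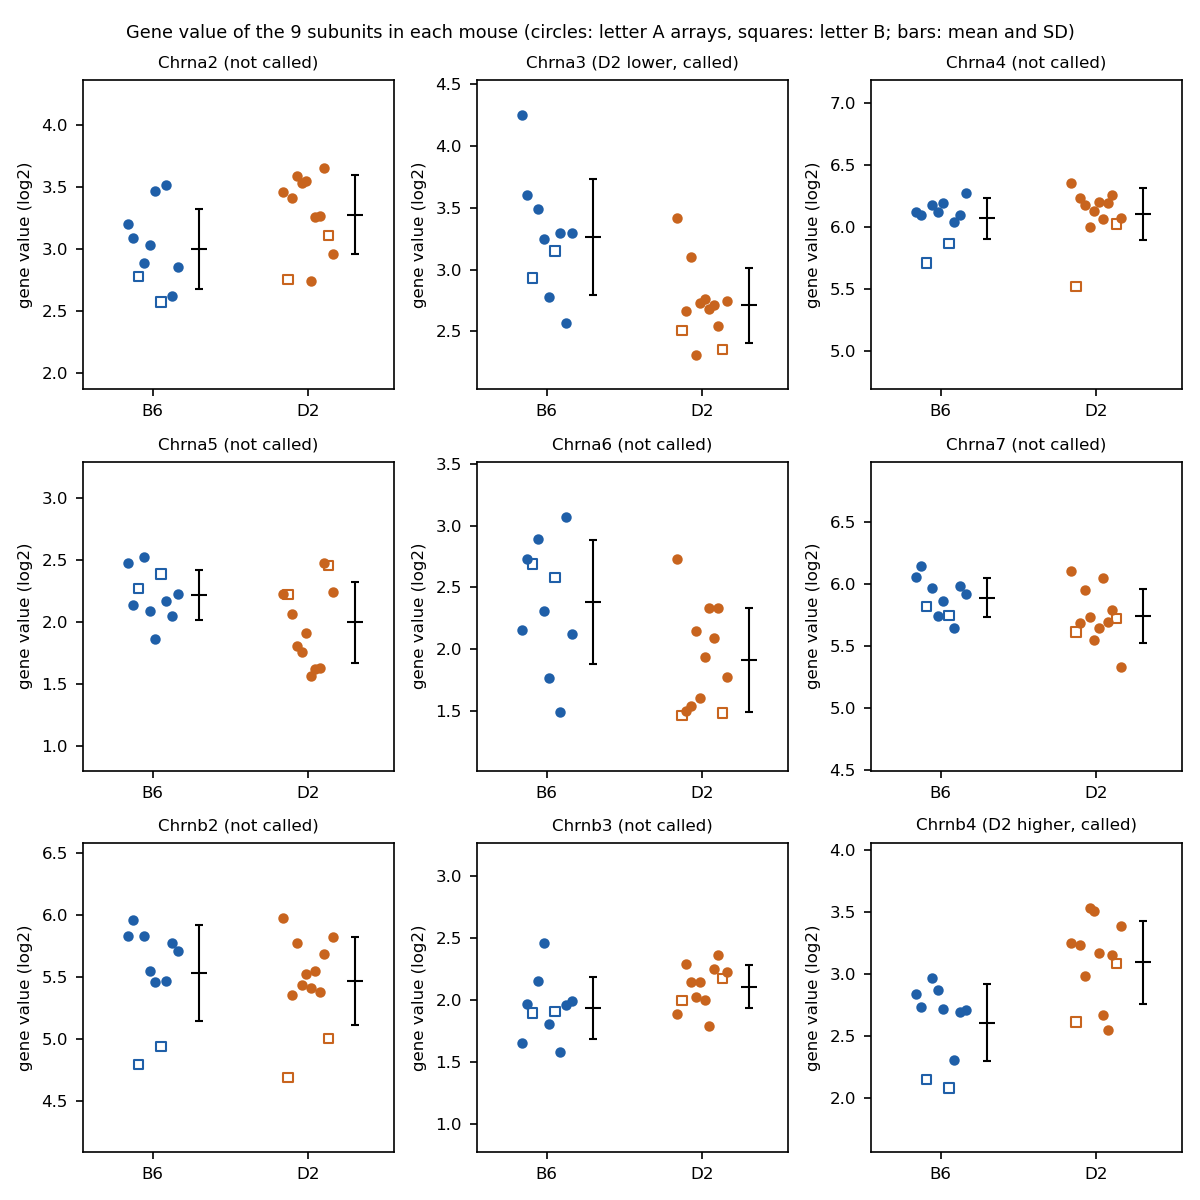
Gene value (log2, vertical axis) of each subunit in each mouse, by strain; circles are letter A arrays, squares letter B arrays, and the black bars give mean and SD. The D2 values of Chrnb4 lie mostly above those of B6, with 9 of 12 above the highest B6 mouse, and 11 of 12 D2 values of Chrna3 lie below the B6 median; Chrnb2 shows 4 letter B arrays below all others.

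Chrna3, Chrnb4 and Chrna5 are neighbours on chromosome 9 and are known together as the gene cluster in which human variants have been linked to smoking. Chrna3 encodes the alpha3 subunit, which forms part of the acetylcholine binding site, and its gene value ranged from 2.57 to 4.25 in B6 (median 3.27) and from 2.31 to 3.41 in D2 (median 2.70). In 11 of 12 D2 mice it was below the B6 median, 4 D2 mice were below the lowest B6 mouse, and 3 B6 mice were above the highest D2 mouse. B6 averaged 3.26 ± 0.47 (SD, n = 10) and D2 2.71 ± 0.30 (SD, n = 12). The difference was -0.55 ± 0.15 (SE, 95% interval -0.865 to -0.234, limma adjusted p = 0.0202), so the signal was 1.46-fold higher in B6.

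Chrnb4 encodes beta4, the structural partner of alpha3 in ganglia and habenula, and differed the other way. Its gene value ranged from 2.08 to 2.96 in B6 (median 2.71) and from 2.55 to 3.54 in D2 (median 3.16). Of the D2 mice, 9 of 12 lay above the highest B6 mouse, and 3 B6 mice lay below the lowest D2 mouse. B6 averaged 2.61 ± 0.31 (SD, n = 10) and D2 3.09 ± 0.33 (SD, n = 12), a difference of 0.49 ± 0.13 (SE, 95% interval 0.22 to 0.759, limma adjusted p = 0.0156) or 1.40-fold.

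Because these neighbouring genes differed in opposite directions, the Chrna3 value minus the Chrnb4 value was also taken on each array, which removes any shift that the whole array shares. It ranged from -0.12 to 1.41 in B6 (median 0.69) and from -1.22 to 0.17 in D2 (median -0.48). All 12 D2 mice were below the B6 median and 8 of 10 B6 mice were above the highest D2 mouse. This was formed after the differences of both genes were known and is given as a description, with no test.

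Array-wide level was treated in 2 ways. After the median of an array's gene values was subtracted from it, both calls held, with Chrna3 at -0.45 (limma adjusted p = 0.0292) and Chrnb4 at 0.59 (adjusted p = 0.00308). The array median over all probesets, which itself differed between the strains, was also used as a covariate. Chrna3 then differed by -0.25 ± 0.21 (SE, limma adjusted p = 0.645) and Chrnb4 by 0.50 ± 0.20 (adjusted p = 0.193), and neither was called. Over all genes, the number called fell from 1735 to 495 with this covariate. Chrna3 was also not called on the letter A arrays alone (-0.55, adjusted p = 0.0559) or without the D2 replicates 13, 14 and 19 (-0.48, adjusted p = 0.0844), whereas Chrnb4 was called in both. These D2 replicates had the lowest median correlation with arrays of their own strain, at 0.934, 0.932 and 0.933.

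The stretches just before the start sites of both genes are shown because they are the closest regulatory sequence of the only subunits called at gene level. They are the 250 bases before the RefSeq start in GRCm38.p6, on the minus strand, 5′ to 3′, at chr9:55026563-55026812 for Chrna3 and chr9:55048545-55048794 for Chrnb4. Capitals mark GC boxes (GGGCGG) and CACC boxes (CCACCC), each searched on both strands, so that a match on the opposite strand appears as CCGCCC or GGGTGG.
Chrna3: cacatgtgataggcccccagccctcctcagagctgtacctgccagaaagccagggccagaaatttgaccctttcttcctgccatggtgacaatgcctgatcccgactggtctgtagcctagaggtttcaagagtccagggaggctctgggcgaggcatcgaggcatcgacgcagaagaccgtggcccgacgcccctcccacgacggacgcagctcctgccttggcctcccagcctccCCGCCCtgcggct
Chrnb4: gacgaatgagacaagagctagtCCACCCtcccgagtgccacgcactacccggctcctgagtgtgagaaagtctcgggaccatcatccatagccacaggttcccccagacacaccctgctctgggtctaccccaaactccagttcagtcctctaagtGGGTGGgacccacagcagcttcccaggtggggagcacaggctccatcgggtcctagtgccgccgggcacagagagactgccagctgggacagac
The Chrna3 stretch held 1 GC box near its end and no CACC box. The Chrnb4 stretch held 2 CACC boxes, 1 on each strand, and no GC box. Among 32851 RefSeq promoters of this length, 32.7% held a GC box and 28.1% a CACC box. Neither stretch held TATAAA, found in 12.4% of promoters, nor CCAAT, found in 33.8%. A match is a run of letters, not a measured binding site, and this is the reference sequence, not that of D2. Of the 9 subunit genes, 6 matched an entry in the promoter table.

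Along Chrna3 the difference was not uniform. None of its 6 kept probesets was called by itself, and 3 of them had an unadjusted p under 0.05. These were probesets 4920187 (-0.71 ± 0.25 SE), 5216362 (-0.69 ± 0.22) and 4714688 (-0.61 ± 0.22), with limma adjusted p of 0.118, 0.0888 and 0.129. In each of these 3, 11 of 12 D2 mice were below the B6 median. The brightest probeset, 4305664, ranged from 5.14 to 5.51 in B6 (median 5.33) and from 4.73 to 5.67 in D2 (median 5.25), a difference of -0.10 ± 0.10. The next brightest, 4578646, differed by 0.09 ± 0.13. Both bright ones thus lay close to 0, with strain means of 5.17 to 5.34. The 3 with the largest differences had strain means of 2.33 to 3.16, far below that pair. They were nearer the dimmest, 4493097 (2.37 in B6, 2.16 in D2), which differed by -0.21 ± 0.24. The gene value, a median of the 6, was therefore set by the dimmer probesets and not by the bright pair. Relative to the gene value, probeset 4305664 had a splicing index difference of 0.45 ± 0.18 (adjusted p = 0.264), and probeset 4578646 one of 0.64 ± 0.21 (adjusted p = 0.135), and neither was called.

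Along Chrnb4 the direction was the same in every row: all 11 probesets with values had a higher mean in D2, from 0.04 to 0.93 among the 10 kept, with a median of 0.34. Probeset 4529506 ranged from 2.26 to 3.95 in B6 (median 2.91) and from 2.29 to 4.44 in D2 (median 3.90). Its D2 values exceeded the B6 median in 11 of 12 mice, and it differed by 0.93 ± 0.23 (SE, limma adjusted p = 0.0199). Probeset 5363166 ranged from 1.20 to 2.14 in B6 (median 1.79) and from 1.58 to 3.20 in D2 (median 2.37), with 7 D2 mice above all B6 mice. It differed by 0.63 ± 0.18 (adjusted p = 0.0434). The brightest Chrnb4 probeset, 5512275, differed by 0.34 ± 0.27 (adjusted p = 0.565). None of the 10 index differences was called, the smallest adjusted p being 0.389.

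Neither of these Chrnb4 probesets was called on the letter A arrays alone (4529506 at 0.79, adjusted p = 0.135; 5363166 at 0.66, adjusted p = 0.0716) or with the array median as covariate (1.05, adjusted p = 0.148; 0.63, adjusted p = 0.306). Probeset 5363166 was also not called without a filter (0.63, adjusted p = 0.0642) or without the D2 replicates 13, 14 and 19 (0.67, adjusted p = 0.0668).

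**Figure D2:**
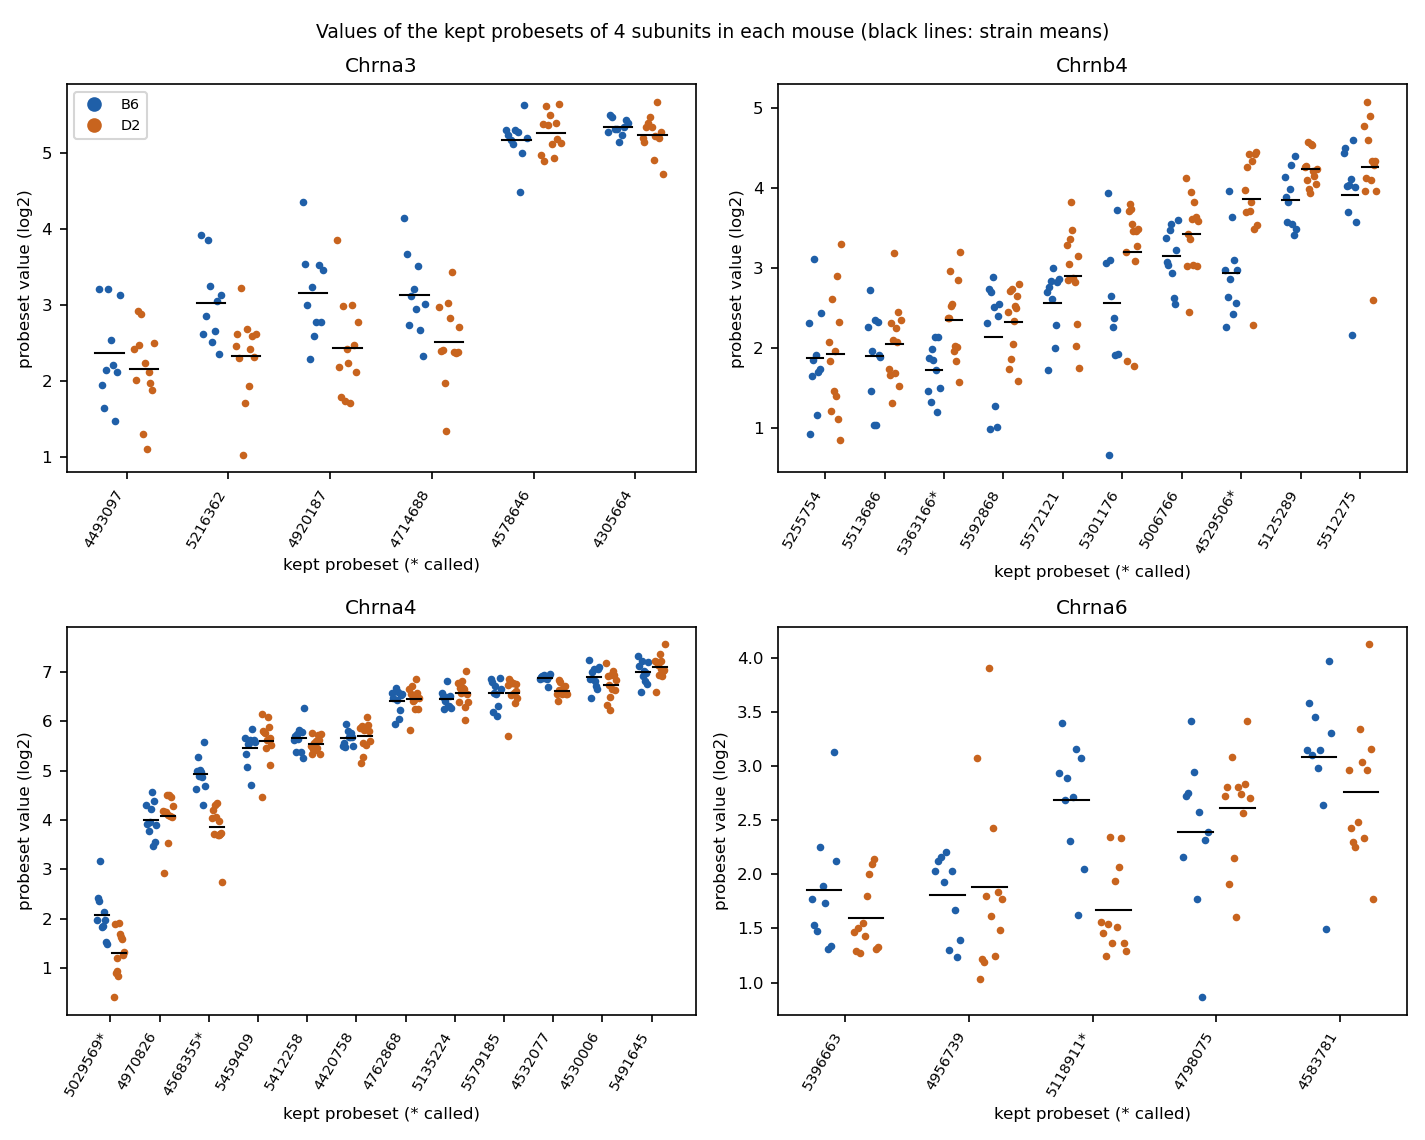
Probeset values (log2, vertical axis) of Chrna3, Chrnb4, Chrna4 and Chrna6 in each mouse, with the kept probesets of a gene ordered by mean signal; blue points are B6, orange points D2, black lines the strain means, and an asterisk marks a called probeset. In Chrna4 the D2 points of 4568355 sit about 1 log2 unit lower on average and overlap those of B6 only slightly, while most other probesets overlap widely. In Chrna3 both bright probesets overlap.

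Chrna5, which encodes the accessory alpha5 subunit, ranged from 1.86 to 2.53 in B6 (median 2.20) and from 1.57 to 2.48 in D2 (median 1.99). The strains overlapped over most of this range, although 5 D2 mice were below the lowest B6 mouse. The difference was -0.22 ± 0.12 (SE, 95% interval -0.458 to 0.017, limma adjusted p = 0.233). Of its 6 kept probesets 5 had a lower D2 mean and none was called. The brightest, 4488038, differed by -0.26 ± 0.19.

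The genes that flank this cluster were measured as well. In the gene order of GRCm38.p6 the 3 nearest measured genes on the Chrna5 side are Ireb2, Hykk and Psma4, and on the Chrnb4 side Ube2q2, Fbxo22 and Nrg4. None of these 6 was called. Their differences ran from -0.18 ± 0.088 (Fbxo22, adjusted p = 0.196) to 0.03 ± 0.17 (Nrg4, adjusted p = 0.944). The differences of Chrna3 and Chrnb4 were outside that range on either side.

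The alpha4 and beta2 subunits, partners in the main nicotinic receptor of the brain, had clear signal in each mouse and no gene-level call. Chrna4 ranged from 5.71 to 6.28 in B6 (median 6.11) and from 5.52 to 6.35 in D2 (median 6.15). The D2 mice included both the highest and the lowest value. The difference was 0.03 ± 0.087 (SE, 95% interval -0.147 to 0.211, limma adjusted p = 0.855). With the gene value taken as the mean over probesets, Chrna4 differed by -0.15 ± 0.064 (SE, limma adjusted p = 0.108), which was not called either. Chrnb2 ranged from 4.79 to 5.96 in B6 (median 5.63) and from 4.68 to 5.98 in D2 (median 5.47). Its difference was -0.07 ± 0.15 (95% interval -0.369 to 0.239, adjusted p = 0.822). None of the 10 Chrnb2 probesets was called, and their differences ran from -0.31 to 0.47. The brightest, 5555230, differed by 0.07 ± 0.12.

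Within Chrna4, 1 probeset stood apart. Probeset 4568355 ranged from 4.30 to 5.58 in B6 (median 4.94) and from 2.75 to 4.34 in D2 (median 3.85). All 12 D2 mice were below the B6 median, 10 D2 mice were below every B6 mouse, and 9 of 10 B6 mice were above every D2 mouse. The difference was -1.07 ± 0.17 (SE, limma adjusted p = 0.00013). Its splicing index, the probeset value minus the gene value on the same array, had a median of -1.16 in B6 (-1.73 to -0.42) and of -2.30 in D2 (-3.32 to -1.31). The index difference was -1.10 ± 0.19 (adjusted p = 0.0013), and it was the only index call among the 75 kept probesets of the 9 genes. Among all index values tested 1.66% were called, 0.894% higher and 0.77% lower in D2.

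A second Chrna4 probeset, 5029569, was dim and also lower in D2. It ranged from 1.49 to 3.18 in B6 (median 1.97) and from 0.42 to 1.92 in D2 (median 1.30), so that all 12 D2 mice lay below the B6 median. The difference was -0.77 ± 0.20 (SE, limma adjusted p = 0.0233), and the index difference was -0.80 ± 0.23 (adjusted p = 0.0822). It was not called on the letter A arrays alone (-0.78, adjusted p = 0.069) or with the array median as covariate (-0.60, adjusted p = 0.395).

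The other 10 Chrna4 probesets differed by between -0.26 and 0.15, with a median of 0.045. The lowest of them, 4532077, was the steadiest, at 6.88 ± 0.073 (SD, n = 10) for B6 and 6.62 ± 0.12 (SD, n = 12) for D2, and 9 D2 mice lay below every B6 mouse. Its difference of -0.26 ± 0.081 had an adjusted p of 0.0791. This probeset falls outside the rule for named probesets and was singled out after its values were seen. The brightest, 5491645, differed by 0.11 ± 0.12. The exon or transcript end that each probeset covers, and whether the strains differ in DNA beneath the probes, was not tested.

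**Figure D3:**
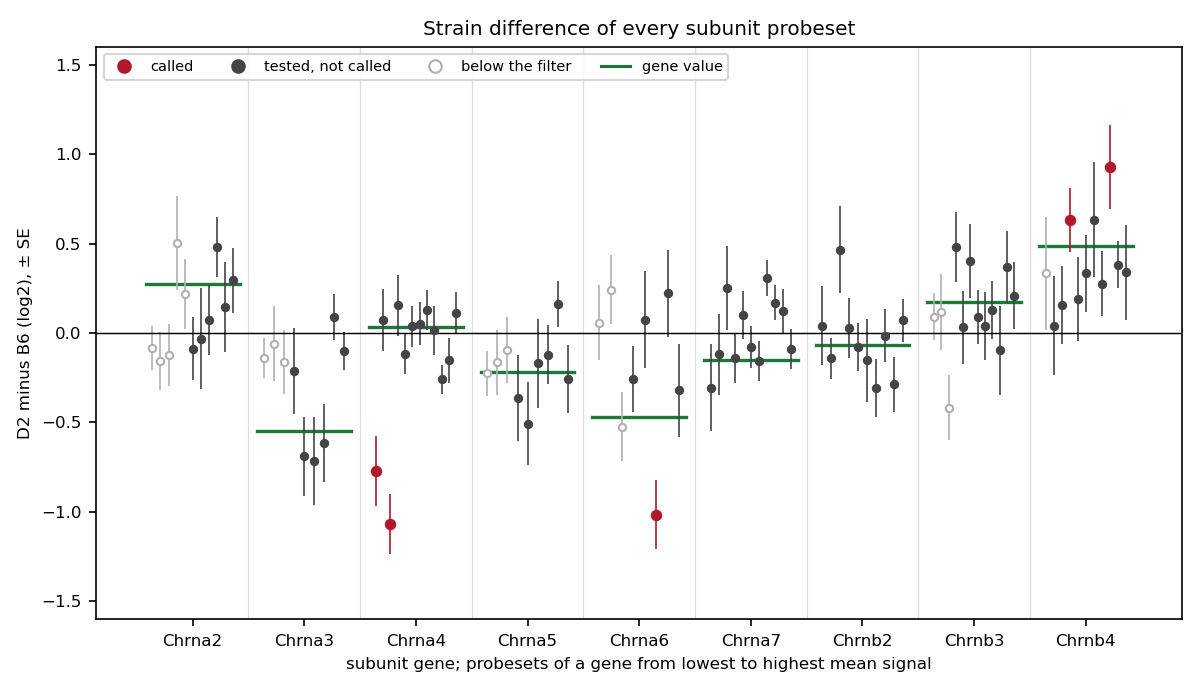
Strain difference (D2 minus B6, log2, vertical axis; bars are SE) of each of the 93 subunit probesets with values, grouped by gene and ordered within it from lowest to highest mean signal; red points are called, open points lie below the filter, and green lines are the gene differences. The 11 Chrnb4 points all lie above 0, and the 3 called points below 0 belong to Chrna4 and Chrna6.

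Chrna6 encodes the alpha6 subunit of dopamine and visual neurons, and was dim with a wide spread. Its gene value ranged from 1.50 to 3.07 in B6 (median 2.44) and from 1.46 to 2.73 in D2 (median 1.86). In 11 of 12 D2 mice it was below the B6 median, but the ranges overlapped over most of their length. The difference was -0.47 ± 0.18 (SE, 95% interval -0.836 to -0.101, limma adjusted p = 0.0938) and was not called. Of 22 fits that each left out a single array, 2 called it: without B6 replicate 9 (-0.57, adjusted p = 0.028) or D2 replicate 23 (-0.54, adjusted p = 0.0387). No other setting in which it was tested called it. It was smaller on the letter A arrays alone (-0.32, adjusted p = 0.364), with the mean over probesets (-0.26, adjusted p = 0.189) and after centring (-0.37, adjusted p = 0.189). It was also smaller without a filter (-0.31) and with the array median as covariate (-0.38). It did not shrink with the letter as a block (-0.47) or without 3 D2 arrays (-0.49).

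The largest difference within Chrna6 lay at 1 probeset. Probeset 5118911 ranged from 1.63 to 3.40 in B6 (median 2.81) and from 1.24 to 2.34 in D2 (median 1.53), with 8 of 12 D2 mice below every B6 mouse. It differed by -1.02 ± 0.19 (SE, limma adjusted p = 0.00153). Its index difference was -0.55 ± 0.16 (adjusted p = 0.0929). The other 4 kept probesets differed by between -0.32 and 0.22, with 2 on either side of 0. The brightest of them, 4583781, differed by -0.32 ± 0.26.

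Chrnb3, the gene of the beta3 subunit that accompanies alpha6, lies beside Chrna6 on chromosome 8. It ranged from 1.58 to 2.46 in B6 (median 1.93) and from 1.79 to 2.37 in D2 (median 2.15), and the D2 range lay within the B6 range. The difference was 0.17 ± 0.093 (SE, 95% interval -0.019 to 0.362, limma adjusted p = 0.249). Of its 9 kept probesets 8 had a higher D2 mean, none was called, and the brightest, 5198136, differed by 0.21 ± 0.19. The 6 nearest measured genes (Rab11fip1, Got1l1 and Eif4ebp1 on the Chrnb3 side, Unc5d, Dusp26 and Rnf122 on the Chrna6 side) were not called either. Their differences ran from -0.31 ± 0.15 (Got1l1) to 0.39 ± 0.16 (Eif4ebp1).

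Chrna7 encodes alpha7, the subunit of calcium-permeable receptors that bind alpha-bungarotoxin, and was not called. It ranged from 5.65 to 6.15 in B6 (median 5.89) and from 5.33 to 6.11 in D2 (median 5.71). The difference was -0.15 ± 0.087 (SE, 95% interval -0.328 to 0.029, limma adjusted p = 0.291). With the gene value taken as the mean over probesets, Chrna7 differed by 0.0061 ± 0.061 (SE, limma adjusted p = 0.957). Of its 12 listed rows 1 was empty on all arrays, and none of the other 11 was called. The brightest, 4642504, differed by -0.09 ± 0.11.

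Probeset 4838011 of Chrna7 was the closest to an index call without reaching it. Its value ranged from 5.99 to 6.52 in B6 (median 6.20) and from 6.27 to 6.95 in D2 (median 6.52), and all 12 D2 mice were above the B6 median. Its index ranged from 0.13 to 0.60 in B6 and from 0.32 to 1.30 in D2, with 11 of 12 D2 mice above the B6 median. The index difference of 0.46 ± 0.094 (SE, limma adjusted p = 0.00734) passed the p threshold and stayed under the required size of 0.5. It was named because of this, after its values were seen. The index differences of the other Chrna7 probesets ran from -0.16 to 0.40. They included 0.32 at 5484645 and 0.27 at 5559813, both brighter, with 9 and 10 of 12 D2 mice above every B6 mouse.

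Chrna2 encodes alpha2 and ranged from 2.57 to 3.51 in B6 (median 2.96) and from 2.74 to 3.66 in D2 (median 3.34). In 10 of 12 D2 mice it was above the B6 median. The difference was 0.27 ± 0.13 (SE, 95% interval 0.0058 to 0.542, limma adjusted p = 0.187), and with no filter on dim probesets it was -0.12, which was not called either. None of its 6 kept probesets was called, and the brightest, 5487771, differed by 0.29 ± 0.18.

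Over all 9 genes, 75 of the 93 probesets with values passed the filter. Of these 75, 2 were called higher in D2 and 3 lower, beside 3.91% of all kept probesets, 1.67% higher and 2.24% lower. An unadjusted p under 0.05 was reached by 14 of the 75, but the share of all kept probesets that reached it was not computed. The D2 mean was above that of B6 in 42 and below in 33, and the median difference was 0.040, beside 0.014 over all kept probesets. The values of the strains overlapped in each of the 75, whereas 0.77% of all kept probesets did not overlap. The 5 calls fell in 3 genes, Chrnb4, Chrna4 and Chrna6. Chrna3, called at gene level, had none, and Chrna4 and Chrna6, not called at gene level, had 3.

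**Figure D4:**
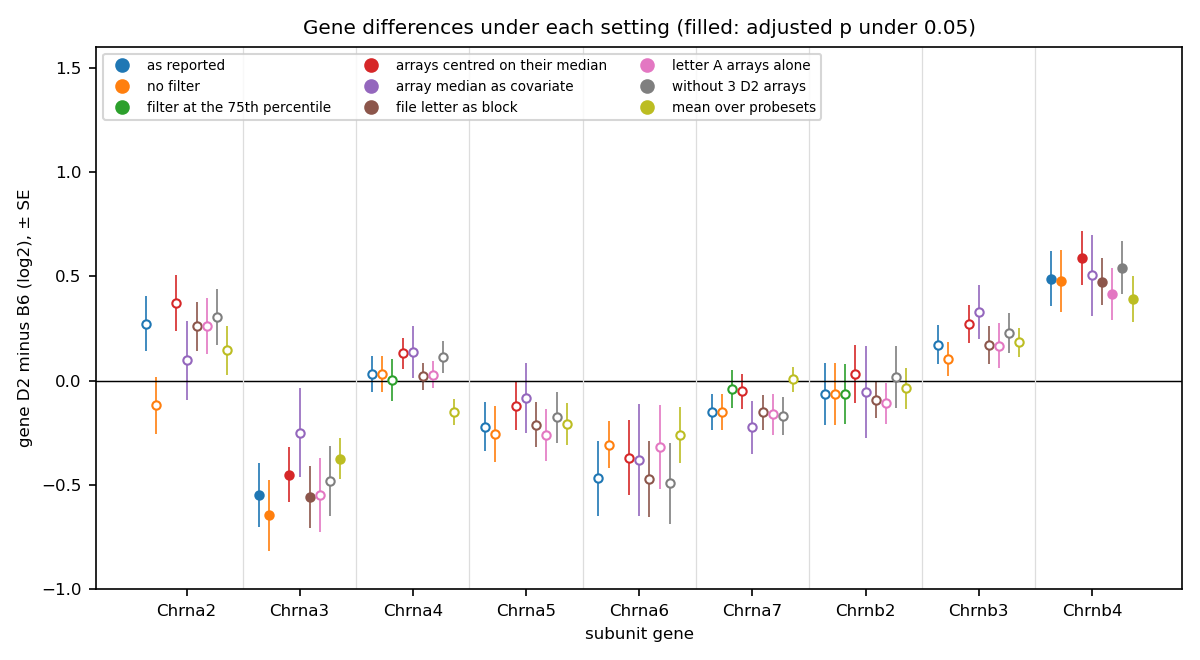
Gene difference (D2 minus B6, log2, vertical axis; bars are SE) of each subunit as reported and under each other setting, which differ in colour; filled points have an adjusted p under 0.05. Chrna3 and Chrnb4 keep their direction under each setting in which they had enough probesets, but are open points with the array median as covariate (-0.25 and 0.50).

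The file letter moved with some subunits. A fit with strain and letter, made after the values were seen, put Chrnb2 lower by 0.79 ± 0.11 (SE, limma adjusted p = 8.81e-05), Chrnb4 by 0.45 ± 0.15 (adjusted p = 0.0382) and Chrna4 by 0.38 ± 0.082 (adjusted p = 0.00395) on the letter B arrays. These were 3 of 9 subunits, all lower. Of all 16016 genes 14.8% were called by letter, 1639 lower and 735 higher on the letter B arrays. The 4 letter B arrays had Chrnb2 values of 4.68 to 5.0, below the 18 letter A arrays at 5.36 to 5.98. With the letter as a block, the strain difference was 0.47 for Chrnb4 (adjusted p = 0.00598) and -0.56 for Chrna3 (adjusted p = 0.0135), and both were called.

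Subunits that assemble together were compared across mice, after each strain was centred on its mean. Among the 36 pairs, 28 had a positive and 8 a negative Pearson r, and only Chrna4 with Chrnb2 passed after Benjamini-Hochberg adjustment (r = 0.79, permutation test within strain, two-sided, p = 0.00014, adjusted p = 0.00504, n = 22). The Spearman rho was 0.44 (permutation p = 0.046, adjusted p = 0.276), and r was 0.57 without the 2 arrays farthest from the Chrna4 median. It was 0.83 in B6 and 0.78 in D2. On the 18 letter A arrays r was 0.23 (permutation adjusted p = 0.753), so the relation did not hold within them and rests on the 4 letter B arrays, which are too few for a value of their own. With the gene value taken as the mean over probesets, 5 pairs passed on all 22 arrays: Chrna4 with Chrnb2 (r = 0.82), Chrnb2 with Chrnb4 (r = 0.75), Chrna4 with Chrnb4 (r = 0.70), Chrna2 with Chrnb2 (r = 0.65) and Chrna2 with Chrna4 (r = 0.59). With the mean, these 5 were not computed on the letter A arrays alone. With the median as gene value, r on those arrays was -0.14 for Chrna2 with Chrnb2 and -0.0022 for Chrna2 with Chrna4. No pair passed there.

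The partners Chrna3 with Chrnb4 (r = 0.17) and Chrna6 with Chrnb3 (r = 0.12) showed weak relations. Among other pairs that did not pass, r was 0.62 for Chrnb2 with Chrnb4 (permutation adjusted p = 0.0581). It was 0.53 for Chrna4 with Chrnb4 (adjusted p = 0.119) and 0.52 for Chrna3 with Chrnb2 (adjusted p = 0.133). On the letter A arrays alone these r values were 0.25, 0.0001 and 0.54. Chrna3 was also set against the median of the annotated probesets of each array, in a family of 18 relations between a subunit and an array-wide median. It gave r = 0.62 (permutation p = 0.00248, adjusted p = 0.0446) and rho = 0.61 (permutation p = 0.00474, adjusted p = 0.0454), and r = 0.48 without the 2 farthest arrays. With the same median Chrna4 passed by rho (0.59, permutation adjusted p = 0.0454) but not by r (0.57, permutation adjusted p = 0.0632). Its r was 0.68 without the same 2 arrays. No other of the 18 relations passed by r or by rho. That median averaged 4.07 on the B6 arrays (SD 0.084) and 3.99 on the D2 arrays (SD 0.084), with p = 0.0637 by the same kind of permutation test. The Chrna3 difference was not fitted with this median as a covariate.

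**Figure D5:**
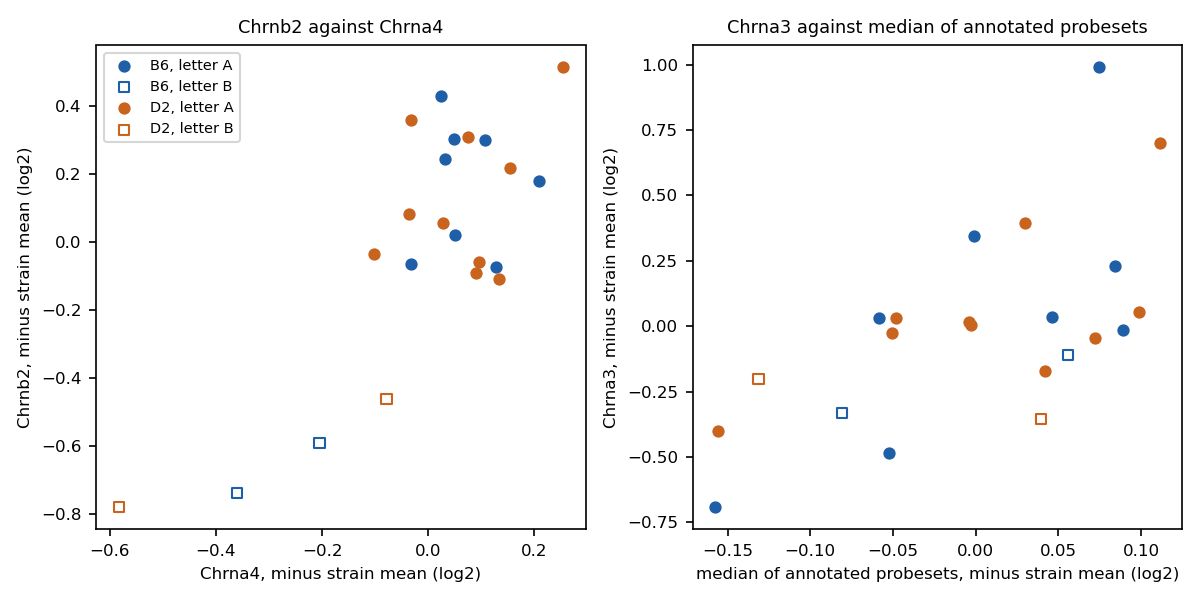
Left, Chrnb2 against Chrna4, and right, Chrna3 against the median of annotated probesets of the array, each minus its strain mean (log2); circles are letter A arrays, open squares letter B arrays, blue B6 and orange D2. On the left the 4 letter B arrays lie apart at low values of both genes (r = 0.79 with them, 0.23 on the letter A arrays), and on the right the points form a single slanted cloud (r = 0.62).

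As a description, the 2 genes whose strain-centred values were most like each subunit over the 22 arrays were taken from all genes tested. They were Fgfr2 (r = 0.86) and Cbln4 (r = 0.81) for Chrna3, Slc9a8 (r = 0.84) and Abca2 (r = 0.81) for Chrnb4, and Iqcg (r = 0.80) and Stk17b (r = 0.78) for Chrna5. For Chrna4 they were Arrb1 (r = 0.93) and Sf3a2 (r = 0.92), and for Chrnb2 Ppp2r1a (r = 0.94) and Kifc2 (r = 0.94). For Chrna6 they were Caml (r = 0.68) and Cdh16 (r = 0.67), and for Chrnb3 Ubr2 (r = 0.77) and Lrrc4b (r = 0.75). Chrna7 was most like E2f1 (r = 0.81) and Bcdin3d (r = 0.77), and Chrna2 most like Rab38 (r = 0.82) and Sema6c (r = 0.77). The points share their arrays and file letters, and the highest values belong to Chrna4 and Chrnb2, which differed by letter.

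The subunits of muscle and inner ear receptors (Chrna1, Chrnb1, Chrnd, Chrne, Chrng, Chrna9 and Chrna10) gave no call in 7 of 7. The largest differences were 0.41 ± 0.15 for Chrnd, the delta subunit of muscle (adjusted p = 0.0755), and -0.37 ± 0.14 for Chrnb1, its beta subunit (adjusted p = 0.08). Among 14 measured chaperones and modulators of nicotinic receptors, none was higher and 2 were lower in D2, beside 2.57% and 8.26% of all genes. Lypd6b, a membrane-anchored protein of the Ly6 family that modulates nicotinic receptors, ranged from 4.86 to 5.31 in B6 (median 4.99) and from 4.34 to 5.13 in D2 (median 4.66), and fell by 0.35 (adjusted p = 0.0244). Rer1, a sorting receptor that retains unassembled subunits early in the secretory pathway, ranged from 6.57 to 7.08 in B6 (median 6.83) and from 6.13 to 6.84 in D2 (median 6.56), and fell by 0.33 (adjusted p = 0.0266). Ric3, the chaperone of alpha7, was not called (0.03 ± 0.11), nor was Lynx1, a brake on nicotinic receptors (0.0079 ± 0.082); both were singled out after their values were seen.

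Of 6 measured genes of acetylcholine synthesis and handling, 2 were lower and none was higher in D2, beside the same shares of all genes. Bche, butyrylcholinesterase, ranged from 2.69 to 4.22 in B6 (median 3.79) and from 2.69 to 3.63 in D2 (median 3.16), and fell by 0.56 (limma adjusted p = 0.0176). Colq, the collagen tail that anchors acetylcholinesterase, ranged from 2.76 to 3.44 in B6 (median 3.16) and from 2.45 to 3.26 in D2 (median 2.85), and fell by 0.30 (adjusted p = 0.0434). None of the 5 muscarinic receptors was called, with the largest differences at -0.22 ± 0.15 for Chrm1 and -0.18 ± 0.085 for Chrm3. The median differences of these lists were 0.11 for the other nicotinic subunits, -0.02 for the chaperones and modulators, -0.18 for acetylcholine handling and -0.13 for the muscarinic receptors, beside -0.053 over all genes.

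Markers of the cells in which these subunits are concentrated were set beside them. Their counts stand beside 2.57% higher and 8.26% lower among all genes. Of 9 measured medial habenula markers 1 was lower in D2, the calcium-binding protein Calb2 (-0.31 ± 0.08, limma adjusted p = 0.011), and the mean over the list ranged from 4.95 to 5.33 in B6 and from 4.73 to 5.22 in D2. Of 10 midbrain dopamine markers, the transcription factor Pitx3 was higher (0.46 ± 0.1, adjusted p = 0.00259) and the nuclear receptor Nr4a2 lower (-0.37 ± 0.088, adjusted p = 0.00632), and the mean ranged from 4.56 to 4.84 in B6 and from 4.42 to 4.80 in D2. None of 5 cholinergic neuron markers was called (Prph at 0.14 ± 0.11, Mnx1 at -0.04 ± 0.14), with a mean of 2.79 to 3.20 in B6 and 2.87 to 3.28 in D2. None of 5 pineal markers was called (Gngt2 at -0.37 ± 0.14, Tph1 at 0.22 ± 0.13), with a mean of 2.33 to 2.77 in B6 and 2.40 to 3.08 in D2. On this log2 scale no marker sits at 0, and the part of these cells in the subunit differences was not tested. How particular each marker, Calb2 included, is to these cells in whole brain was not tested either.

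The remaining marker lists check the tissue, and their counts stand beside 2.57% higher and 8.26% lower among all genes. The pan-neuronal markers had a mean of 8.40 to 8.81 in B6 and 8.16 to 8.72 in D2, with 1 of 7 lower. Among astrocyte markers 1 of 7 was higher and 3 were lower, among oligodendrocyte markers 2 of 6 were lower, and among microglia markers 1 of 8 was lower. Choroid plexus markers gave 2 lower of 7, meninges and pericytes 1 lower of 6, skeletal muscle 1 higher of 6, and liver no call in 3 measured markers. Of 7 listed red blood cell markers only 3 were measured, without Hba-a1, Hba-a2, Hbb-bs and Hbb-bt, and 2 of the 3 were lower. The mean over the 3 did not overlap between strains, at 5.21 to 5.78 in B6 and 3.24 to 4.67 in D2 (median difference -0.90). Among all single genes 1.18% did not overlap, and no such share was computed for list means. None of 3 pituitary markers was called, and their mean ranged widely, from 2.10 to 5.23 in B6 and from 2.11 to 7.63 in D2 (median difference 0.56). The part of these tissues in the subunit differences was not tested.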

How the data were processed

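The authors deposited log2 expression values per probeset, which the submitters' processing notes attribute to RMA in affy 1.12.2 under R 2.6.0; RMA options, probeset definition and genome build are not given in the sources used here. Of 1201338 probesets 10932 were empty on all arrays and left out. Probesets whose mean over the 22 arrays reached the median over all probesets (log2 1.44) were kept (595203), and a gene's value was the per-array median of at least 3 kept probesets listed under 1 symbol. Symbols came from the platform annotation (311384 probesets with 1 symbol, 6385 with several, not used; 3990 symbols updated through a synonym, 295 kept as given). Arrays have no read depth, so their number limits the precision.

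Values were fitted in R 4.3.3 with limma 3.58.1 (lmFit, eBayes, D2 minus B6) over all genes, all kept probesets and all 236114 splicing index values, with Benjamini-Hochberg adjustment over each whole table. Calls were made at an adjusted p under 0.05, for the index also at a difference of at least 0.5. Correlations used 100000 permutations within strain. The fits were tested on simulated data. Probesets with a call (at most the 3 largest differences per gene) and the brightest per gene were named. The Chrna3 probesets named other than 4305664 fall outside this rule, as do 4532077 of Chrna4 and 4838011 of Chrna7. Of each list, up to 4 called genes were named, or the 2 with the largest differences where none was called. The subunits, lists and tests were chosen with earlier results of these data known. Alternatives were other filters, scalings, batches, array subsets and gene summaries. Sequences are from RefSeq; figures were drawn with matplotlib 3.10.9.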

Additional observations from a re-analysis of the deposited data

Results flagged for a closer look

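In the B6 group, 1 mouse stood apart from the other 9 at the brightest Chrnb4 probeset, 5512275. B6 replicate 5 had a value of 2.16 and the next lowest B6 mouse 3.57, a gap of 0.58 of the group's whole range against a critical value of 0.466 for 10 samples. Its array carries file letter B. The B6 values were tested for 23 genes and named probesets, and chance flags about 1 in 20 such groups. Groups of more than 10 mice were not tested.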

How the results depend on the processing

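Of the results compared, none changed sign while called. Chrna3 lost its call once the array median was a covariate (-0.25, adjusted p = 0.645), on letter A arrays alone (-0.55) or without the D2 replicates 13, 14 and 19 (-0.48), and Chrnb4 lost it with the covariate (0.50). Centring the arrays kept both calls (-0.45 and 0.59). The 4 letter B arrays alone gave -0.61 for Chrna3 and 0.74 for Chrnb4, larger than over all arrays; neither was called, but with 2 mice per strain this says nothing about stability. Leaving out each array in turn, a setting added after seeing the data as was letter B alone, kept the calls of Chrna3 (-0.63 to -0.44) and Chrnb4 (0.43 to 0.54) in 22 of 22 fits, and gave -0.57 to -0.39 for Chrna6, called in 2 of 22. With the filter at the 75th percentile, Chrna2, Chrna3, Chrna5, Chrna6, Chrnb3 and Chrnb4 had under 3 probesets and were not tested, so the counts of genes called higher and lower were 0 and 0. They were also 0 and 0 with the covariate, and 0 genes were lower on letter A arrays alone and without the 3 D2 arrays. Probesets called higher numbered 1 without a filter, with the stricter filter and without the 3 D2 arrays, and 0 with the covariate and on letter A arrays alone. Index calls were 1 higher with the covariate, and 2 lower without a filter (Chrna6 5118911 added, -0.71) and without the 3 D2 arrays (Chrna4 5029569 added, -0.98). No paired analysis was possible because the strains share no replicate numbers.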
